A study of Mus musculus with 50 samples.

Results

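The growth hormone and insulin-like growth factor (IGF) axis was examined through 10 transcripts, Ghr, Stat5b, Igf1, Igfals, Igfbp1, Igfbp2, Igfbp3, Igfbp4, Cish and Socs2, picked by gene symbol from a table of 45792 genes. All 10 were present and all 10 passed the filter on low counts in every comparison. The study sequenced mRNA of 50 samples from C3H/He mice, an inbred strain prone to liver tumours, each sample being liver or tumour tissue collected at 48 weeks. The mice were fed a control diet or the ALIOS diet, which is rich in fat and trans fat and is given with fructose in the drinking water. Some received DEN (diethylnitrosamine), a carcinogen activated in hepatocytes. The groups were 12 control livers (N1 to N12), 11 ALIOS livers (N13 to N23), 13 ALIOS tumours of mice without DEN (T1 to T6 and T8 to T14), called spontaneous below, 1 control tumour without DEN (T7), 8 ALIOS DEN tumours (T15, T16 and T22 to T27) and 5 control DEN tumours (T17 to T21). The study's methods describe male mice. They state that fasted mice had a glucose tolerance test at 48 weeks and were killed after it. The time between test and death is not stated, and the labels do not give the nutritional state or hour of death of a mouse. Non-tumour liver of DEN mice was not analysed here, so DEN tumours were compared with livers of mice without DEN. In these comparisons, tumour tissue and the carcinogen therefore cannot be told apart.

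In the liver, pituitary growth hormone binds its receptor (Ghr) on hepatocytes, the receptor-bound kinase Jak2 phosphorylates STAT5B (Stat5b), and STAT5B enters the nucleus and drives its target genes. Igf1, the circulating growth factor, and Igfals, the acid-labile subunit, are targets made mainly by hepatocytes. IGF-1 travels in blood in a ternary complex with Igfbp3 protein and the acid-labile subunit. Cish and Socs2 are rapid STAT5 targets whose proteins damp the receptor's signal, and Bcl6 is a repressor that STAT5 lowers. Igfbp1, Igfbp2 and Igfbp4 proteins bind IGFs outside the ternary complex, and Igfbp1 transcription is held down by insulin through FOXO1. Male rodents release growth hormone in pulses and females more evenly, and many liver genes are sex-biased for that reason.

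The sequence around a transcription start shows where STAT5 and FOXO1 could meet these genes, so the promoters were searched on both strands for the STAT5 motif TTCNNNGAA and the FOXO motifs CAAAACAA and TGTTTAC. RefSeq promoters of build GRCm38.p6, 250 bases before to 50 bases after a start, were at hand for 9 of the 10 genes, 14 promoters in all. Socs2 had no entry. Of all 32851 promoters of this length, 8.3% held TTCNNNGAA, 2.51% CAAAACAA and 3.65% TGTTTAC. The STAT5 motif was found in 3 of the 14 promoters, those of Cish and of 2 of the 3 starts of Igfals. CAAAACAA was found in the Igfbp1 promoter, 108 bases before its start, and TGTTTAC in the second start of Igfals. Cish held TTCNNNGAA in 2 copies, which begin at positions 1 and 12 counted from its start, and in Igfals the motif begins 236 bases before the first start and 58 before the second. These 4 promoters are shown from 5′ to 3′ on the plus strand, up to 30 bases past the start, because they hold the motifs, which stand in capitals. A match is a run of letters, not a measured binding site.
Cish, chr9:107296409-107296688: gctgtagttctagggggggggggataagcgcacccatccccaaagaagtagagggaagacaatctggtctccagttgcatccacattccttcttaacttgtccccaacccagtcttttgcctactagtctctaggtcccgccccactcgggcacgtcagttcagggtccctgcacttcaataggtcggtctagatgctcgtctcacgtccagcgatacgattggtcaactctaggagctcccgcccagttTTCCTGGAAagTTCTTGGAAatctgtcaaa
Igfals first start, chr17:24877594-24877873: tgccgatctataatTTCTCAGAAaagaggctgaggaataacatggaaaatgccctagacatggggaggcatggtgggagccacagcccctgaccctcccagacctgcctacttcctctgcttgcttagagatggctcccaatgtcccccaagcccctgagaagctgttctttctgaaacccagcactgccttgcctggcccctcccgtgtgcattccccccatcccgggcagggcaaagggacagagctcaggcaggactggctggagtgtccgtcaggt
Igfals second start, chr17:24877981-24878260: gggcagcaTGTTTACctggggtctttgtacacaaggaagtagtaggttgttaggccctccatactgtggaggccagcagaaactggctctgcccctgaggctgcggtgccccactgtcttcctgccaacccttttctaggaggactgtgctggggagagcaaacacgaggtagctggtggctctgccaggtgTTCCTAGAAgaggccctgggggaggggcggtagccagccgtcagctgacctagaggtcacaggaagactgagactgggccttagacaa
Igfbp1, chr11:7197537-7197816: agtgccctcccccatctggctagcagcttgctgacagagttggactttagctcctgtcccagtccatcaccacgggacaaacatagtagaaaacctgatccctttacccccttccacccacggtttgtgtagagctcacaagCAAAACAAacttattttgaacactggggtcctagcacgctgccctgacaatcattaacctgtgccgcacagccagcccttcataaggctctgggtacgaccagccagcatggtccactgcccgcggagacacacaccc

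Between 23798251 and 45751398 reads were counted per library. Tumour T1 was left out of all groups, because its library held 35347 CPM of the kidney androgen-regulated gene Kap and 37.9 CPM of albumin (Alb), where CPM are counts per 1000000 counted reads. That left 12 spontaneous ALIOS tumours and 49 libraries. Of 20 hepatocyte markers, 19 were in the table and their summed level was 113500 to 191900 CPM in the 23 livers and 100400 to 296600 CPM in the 26 tumours. Among the tumours, Afp, the fetal liver protein that marks these tumours, had a median of 295 CPM in the spontaneous ALIOS group, but 3.49 CPM in T2 and 4.95 CPM in T6, and 19.2 CPM in the DEN tumour T23, against at most 1.62 CPM in livers. Igf1 and Igfals are also given without these tumours. T24, an ALIOS DEN tumour, stood apart from its group, with 2582 CPM of Afp and a summed level of 12 stellate cell and fibroblast markers of 1321 CPM, and was left out in turn as well. In bulk tissue, fewer cells of a type and less RNA per cell cannot be told apart.

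In the 3 replicated tumour groups, levels of Ghr, Igf1 and Igfals were lower than in livers and Igfbp1 was far higher. These groups were the DEN tumours of either diet and the spontaneous ALIOS tumours. The only control tumour without DEN, T7, entered no test. On the ALIOS diet, 7 of the 10 transcripts differed between the 12 spontaneous tumours and the 11 livers at an adjusted p-value under 0.05, 2 higher and 5 lower, where 52.8% of all 14183 genes tested differed, 26.9% higher and 25.9% lower. In the 8 DEN tumours, set against the same 11 ALIOS livers, 6 of the 10 differed, 2 higher and 4 lower, where 47.5% of all genes did, 27.7% higher and 19.8% lower. On the control diet, the 5 DEN tumours differed from the 12 livers in 6 of the 10, again 2 higher and 4 lower, where 51.7% of all genes did, 27.3% higher and 24.4% lower. The members called were thus about as frequent as called genes at large, and it is the size of some changes that was large. Diet changed 1 of the 10 in liver, Igfbp3, where 11.2% of all genes were called, 6.73% higher and 4.51% lower. The median log2 fold change of the 10 was -0.53, -0.63 and -0.54 in the 3 tumour comparisons in this order and -0.11 for diet in liver, where the median over all genes was 0.01, 0.08, 0.03 and -0.02. The first and second tumour comparisons share their livers and are not independent. Clock genes, whose transcripts follow the time of day, moved most in the ALIOS DEN group, where 4 of 13 rose and 6 fell against ALIOS livers, Arntl by 3.05 on the log2 scale (adjusted p = 3.55e-05) and Npas2 by 5.24 (adjusted p = 9.63e-06). In the spontaneous and the control DEN tumours 1 of 12 rose and 2 fell. The part of the hour of death in the ALIOS DEN values was not tested.

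**Figure D1:**
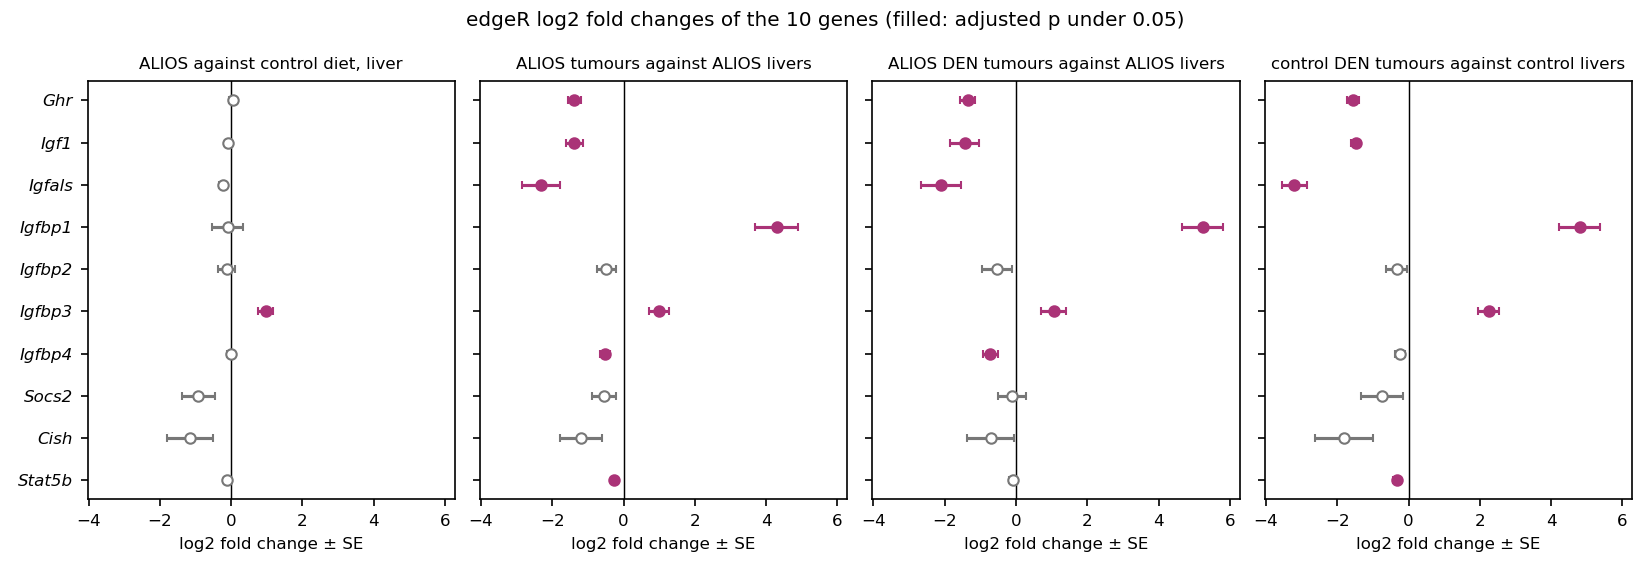
Log2 fold changes of the 10 transcripts with standard errors in 4 comparisons, with filled points where the edgeR adjusted p-value was under 0.05. Igfbp1 lies between 4.30 and 5.23 and Igfals between -3.21 and -2.10 in the 3 tumour comparisons, while in liver Igfbp3 is the filled point for diet.

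Levels per length of exon put Igfbp4 first in liver, with a median of 249 CPM per kb in control livers and 259 CPM per kb in ALIOS livers. Igfbp2, Igf1 and Ghr followed in control livers with medians of 83.9, 74.6 and 70.2 CPM per kb, whose ranges overlapped, and Igfals had 43.3 CPM per kb. Igfbp1 was sixth of the 10 in livers of either diet, with medians of 16.1 and 16.6 CPM per kb. In all 3 tumour groups it was first, at medians of 220, 492 and 572 CPM per kb in spontaneous ALIOS, ALIOS DEN and control DEN tumours. Cish and Socs2 were among the lowest of the 10 in every group. Levels between genes are compared only on this scale, and all other levels are CPM.

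**Figure D2:**
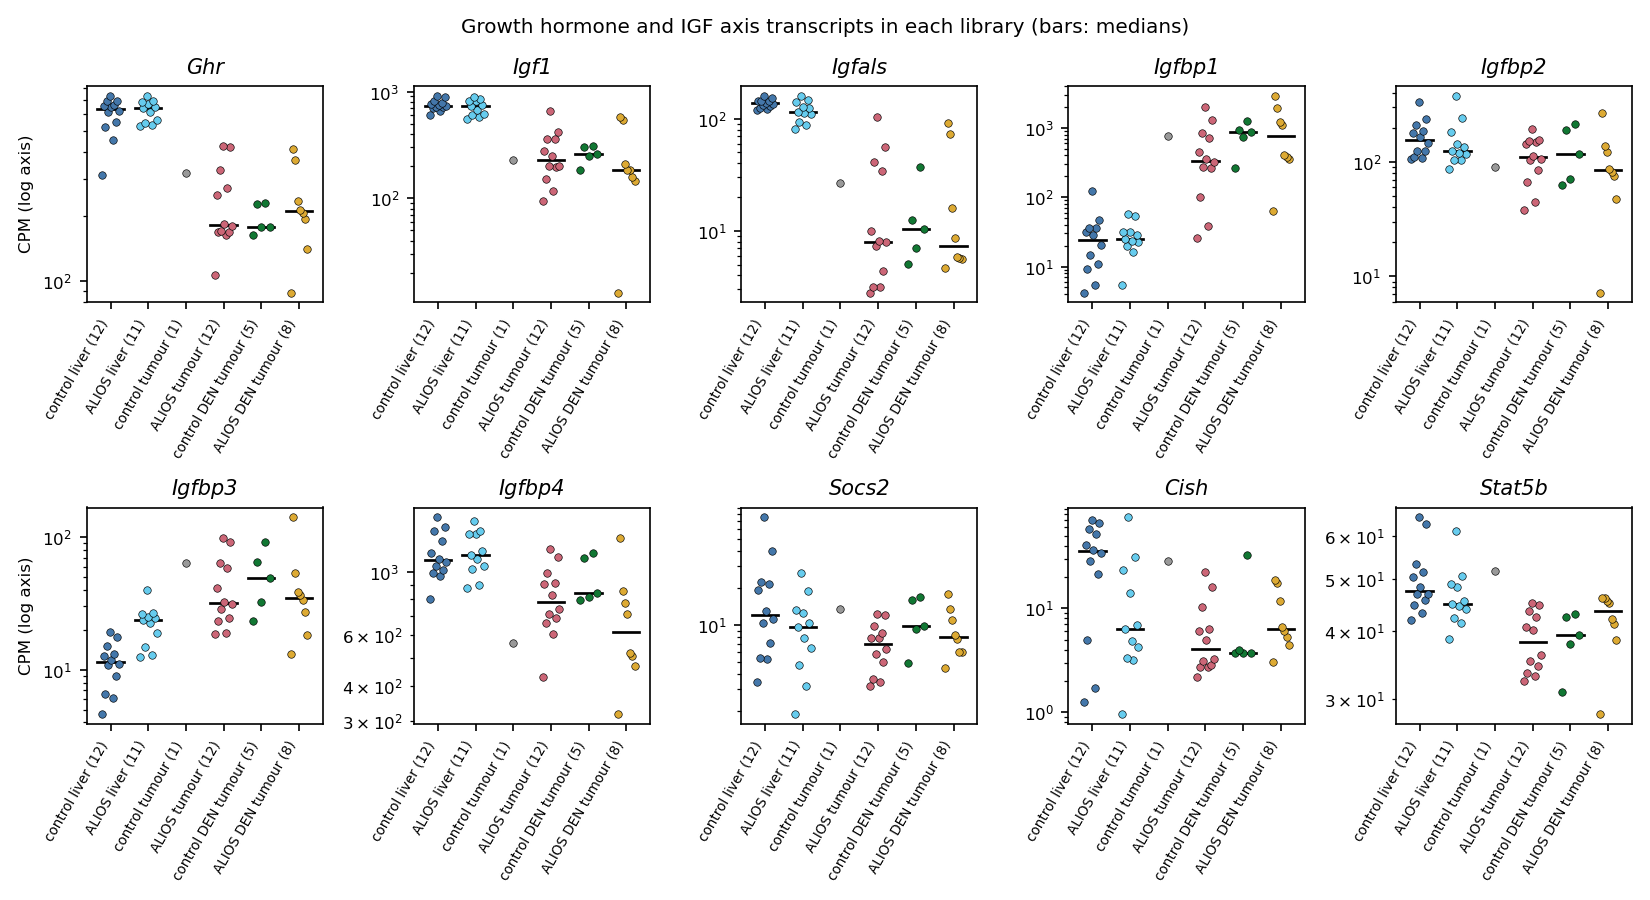
CPM of the 10 transcripts in each of 49 libraries on log axes, by group, with the number of libraries in parentheses and bars at the medians of groups of more than 1 library. Ghr does not overlap between livers and replicated tumour groups of the same diet, the single control tumour T7 lies at the lowest control liver, Igfbp1 is 266 CPM or more in every control DEN tumour, and Cish spreads from 0.963 to 75.0 CPM among livers.

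Ghr (chromosome 15, 3317760 to 3583492, minus strand, GRCm38) encodes the growth hormone receptor. Its levels ran from 312 CPM (N5) over a median of 635 to 732 CPM in control livers, and from 532 over 641 to 730.2 CPM in ALIOS livers. In spontaneous ALIOS tumours they ran from 106 (T11) over 182 to 428 CPM (T2), and in ALIOS DEN tumours from 88.2 (T24) over 212 to 414 CPM (T23). The control DEN tumours had 163, 179, 231, 179 and 228 CPM in T17 to T21. Every tumour of these 3 groups lay under every liver of its diet. Ghr changed by -1.39 on the log2 scale in spontaneous tumours (standard error 0.19, adjusted p = 2.75e-06), -1.36 in ALIOS DEN tumours (0.22, adjusted p = 4.73e-05) and -1.56 in control DEN tumours (0.17, adjusted p = 3.86e-07), a level 0.338 to 0.391 times that in liver. Prlr, the related prolactin receptor, which also signals through STAT5, fell with it, with log2 fold changes of -1.71, -1.71 and -2.12 and adjusted p-values of 0.000114, 8.56e-05 and 2.24e-08.

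Stat5b (chromosome 11, 100780731 to 100850724, minus strand) changed little. Its levels were 41.9 to 64.8 CPM in control livers, 38.7 to 61.3 in ALIOS livers, 32.5 to 45.0 in spontaneous ALIOS tumours and 28.2 to 46.1 in ALIOS DEN tumours. The control DEN tumours T17 to T21 had 39.4, 43.0, 37.9, 42.5 and 30.9 CPM. All groups overlapped with their livers. Stat5b fell by 0.26 on the log2 scale in spontaneous tumours (standard error 0.08, adjusted p = 0.00618) and by 0.32 in control DEN tumours (0.11, adjusted p = 0.0179), and the ALIOS DEN difference of -0.10 did not pass (adjusted p = 0.430). Without normalization factors neither call held (adjusted p = 0.425 and 0.104). Stat5a, its close paralog, did not pass in any comparison and had medians of 9.76 to 10.6 CPM in the 5 replicated groups, and the part of reads shared by these paralogs in the Stat5b values was not tested. Jak2 rose in all 3 tumour comparisons, by 0.34, 0.42 and 0.34 on the log2 scale (adjusted p = 0.00793, 0.00374 and 0.00896).

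Igf1 (chromosome 10, 87858265 to 87937042, plus strand) had nearly the same level in livers of either diet, 606 to 911 CPM with a median of 739 in control livers and 552 to 882 CPM with a median of 734 in ALIOS livers. Spontaneous ALIOS tumours ran from 93.3 (T13) over 226 to 651 CPM (T2), and ALIOS DEN tumours from 13.05 (T24) over 184 to 579.9 CPM (T25). In control DEN tumours T17 to T21 it was 185, 249, 306, 261 and 301 CPM. Only T2 and T25 reached the range of the ALIOS livers, and the control DEN tumours did not overlap with control livers. The log2 fold changes were -1.38 (standard error 0.24, adjusted p = 5.15e-05), -1.44 (0.41, adjusted p = 0.00751) and -1.49 (0.13, adjusted p = 1.84e-08) in spontaneous, ALIOS DEN and control DEN tumours. Without T24 the ALIOS DEN value was -1.26 (adjusted p = 0.000812), without T23 it was -1.73 (adjusted p = 0.00184), and without T2 and T6 the spontaneous value was -1.60 (adjusted p = 1.59e-06). The antisense gene Igf1os overlaps Igf1, and because the strand setting of the counting is not given, its reads could not be set apart.

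Igfals (chromosome 17, 24865997 to 24882010, plus strand), the acid-labile subunit, whose second start holds the motif TTCCTAGAA shown above, was among the steadiest genes in control livers and among the most variable in tumours. Control livers held 119 to 158 CPM, a mean of 137 ± 12.6 (SD, n = 12). Their SD of log2 CPM was 0.13, and only 7.16% of 17728 genes had a smaller one. The spontaneous ALIOS tumours T4 and T8 to T14 had 2.81 to 9.90 CPM, while T6, T5, T3 and T2 had 41.3, 34.1, 56.3 and 104.5 CPM. Of the ALIOS DEN tumours, T15, T16, T24, T26 and T27 had 4.65 to 8.67 CPM, T22 had 16.1, and T23 and T25 had 73.7 and 91.3 CPM. Igfals in T17 to T21 of the control DEN group was 5.07, 7.03, 37.1, 12.6 and 10.3 CPM. T2 and T25 alone overlapped with the ALIOS livers, which had 80.5 to 159.9 CPM. Within spontaneous tumours the SD of log2 CPM was 1.78, larger than that of 98.3% of genes. The log2 fold changes were -2.32 (standard error 0.53, adjusted p = 0.000898) in spontaneous, -2.10 (0.56, adjusted p = 0.00439) in ALIOS DEN and -3.21 (0.35, adjusted p = 3.75e-07) in control DEN tumours. Without T2 and T6 the spontaneous value was -3.03 (adjusted p = 1.7e-05), and without T23 the ALIOS DEN value was -2.57 (adjusted p = 0.000822), so that the size depends on these tumours and the call does not.

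Igfbp1 (chromosome 11, 7197782 to 7202546, plus strand) encodes the binding protein that insulin represses, and its promoter above holds CAAAACAA. It was low and uneven in liver, 4.21 (N1) over 24.5 to 121 CPM (N5) on the control diet and 5.48 (N21) over 25.3 to 56.6 CPM on the ALIOS diet. Spontaneous ALIOS tumours had 25.98 (T6) over 336 to 2004 CPM (T13), and ALIOS DEN tumours 62.8 (T23) over 750.0 to 2889 CPM (T24). Control DEN tumours T17 to T21 had 1265, 871, 735, 943 and 266 CPM. All tumours of these groups lay above every liver of their diet except T2 (38.7 CPM) and T6. It had the largest rise of the 10, with log2 fold changes of 4.30 (standard error 0.61, adjusted p = 4.44e-06), 5.23 (0.57, adjusted p = 7.47e-07) and 4.80 (0.57, adjusted p = 1.07e-06), which are 19.7, 37.7 and 27.9 times the level in liver. The plot of Igfals and Igfbp1 by library shows that the tumours with the most Igfals, T2, T23 and T25, had 38.7, 62.8 and 385 CPM of Igfbp1, against 1306 CPM in T11, which had the least Igfals. Low Igfals did not always go with such a level, since T4, T8, T14 and T27, with 4.41 to 8.67 CPM of Igfals, had 354, 263, 317 and 353 CPM of Igfbp1, less than T25.

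**Figure D3:**
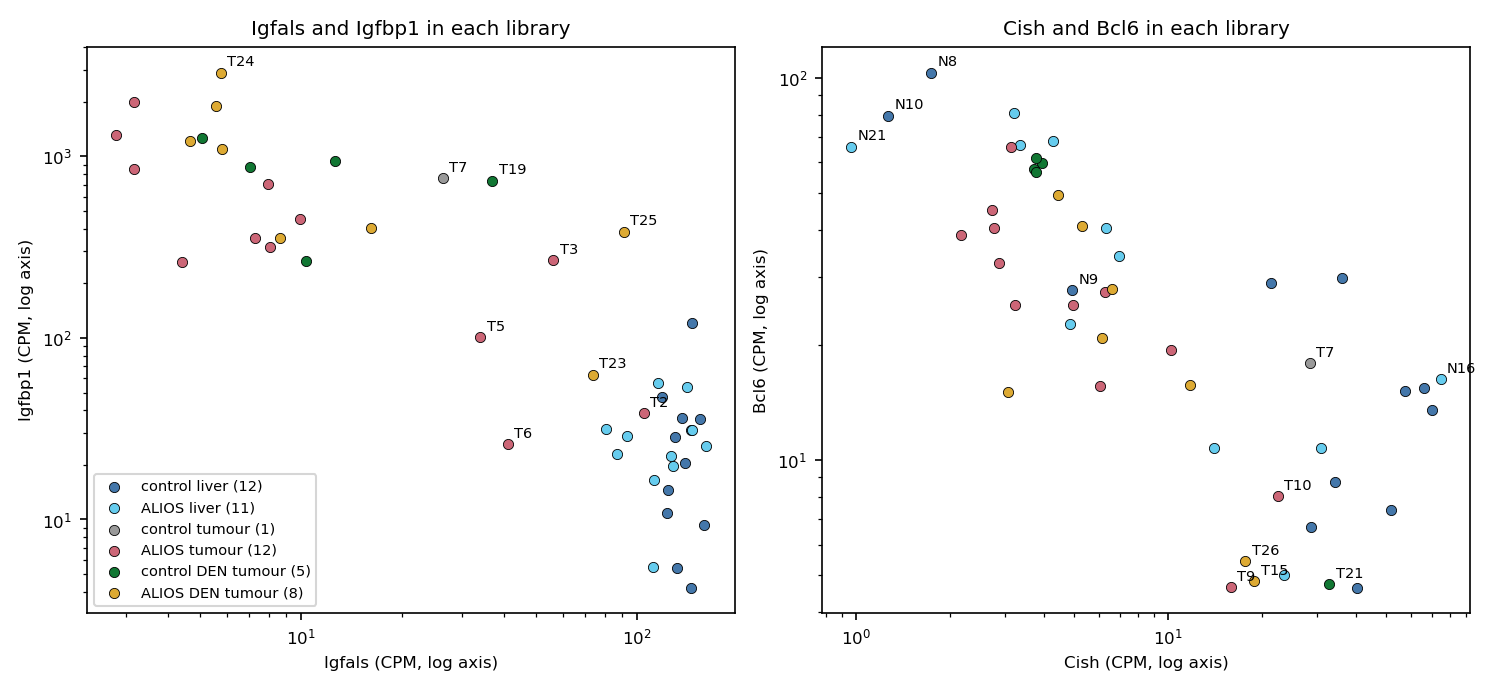
Left, Igfals against Igfbp1, and right, Cish against Bcl6, in CPM on log axes for 49 libraries coloured by group. Most tumours lie at low Igfals and high Igfbp1 with T2, T6 and T23 toward the livers. The 6 tumours with Cish over 15 CPM, a limit not set in advance, have 4.65 to 17.9 CPM of Bcl6.

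Igfbp3 (chromosome 11, 7206086 to 7213923, minus strand) is the partner of the acid-labile subunit in blood, is transcribed largely outside hepatocytes in liver, and lies 3.5 kb from Igfbp1 on the opposite strand. It is the member that diet changed. Control livers had 4.62 (N6) over 11.4 to 19.1 CPM and ALIOS livers 12.5 (N16) over 23.5 to 40.0 CPM (N17). All 11 ALIOS livers exceeded the median of the control livers, and 7 exceeded the highest of them. On the log2 scale the ALIOS diet raised Igfbp3 by 0.96 (standard error 0.22, adjusted p = 0.00821), and leaving out each liver in turn kept it between 0.84 and 1.06. Fitted with all 6 groups together it was 0.98 with an adjusted p of 0.0659. Of 12 macrophage markers, 10 were also higher on the ALIOS diet and none lower, and their summed level was 368 to 851 CPM in control and 569 to 1618 CPM in ALIOS livers, with Adgre1, Cd68 and Csf1r above 0 in all. The count of macrophage markers called ran from 0 to 11 across the alternatives. Of 12 endothelial markers 1 was lower, and of 12 stellate cell and fibroblast markers 3 were higher. Of the cholangiocyte and lymphocyte markers that passed the filter on low counts, 2 of 6 and 3 of 5 were higher. Of all genes tested, 6.73% were higher and 4.51% lower. The part of these cells in the rise of Igfbp3 was not tested.

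In tumours Igfbp3 rose further. Spontaneous ALIOS tumours had 18.7 (T14) over 32.1 to 99.1 CPM (T11), and ALIOS DEN tumours 13.2 (T22) over 34.9 to 141 CPM (T24). The control DEN tumours T17 to T21 had 65.4, 92.5, 49.2, 32.6 and 23.4 CPM, all above the highest control liver. The log2 fold changes were 0.99 (standard error 0.28, adjusted p = 0.00562), 1.05 (0.34, adjusted p = 0.0162) and 2.25 (0.29, adjusted p = 3.15e-06). The ALIOS DEN call rests on T24, without which the value was 0.54 (adjusted p = 0.0771). The difference between the DEN tumour effects on the 2 diets, -1.18 (standard error 0.49), did not pass (adjusted p = 0.208), but without T24 it was -1.72 (adjusted p = 0.0142).

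Igfbp4 (chromosome 11, 99041244 to 99054392, plus strand), which encodes an inhibitor of IGF action, had 805 to 1549 CPM in control livers and 874 to 1504 CPM in ALIOS livers. It was 429.8 (T4) over 787 to 1203 CPM (T2) in spontaneous ALIOS tumours, and 318 (T27) over 616 to 1309 CPM (T24) in ALIOS DEN tumours. It fell by 0.51 (standard error 0.14, adjusted p = 0.00454) and 0.72 (0.20, adjusted p = 0.00678) on the log2 scale in these groups. The control DEN tumours T17 to T21, with 840.1, 815, 1112, 1163 and 797 CPM, overlapped with control livers, and their difference of -0.24 did not pass (adjusted p = 0.184). Igfbp2 (chromosome 1, 72824503 to 72852474, plus strand) had medians of 155 and 125 CPM in control and ALIOS livers and 110.2, 84.3 and 116 CPM in spontaneous, ALIOS DEN and control DEN tumours. All its groups overlapped, and it did not pass in any comparison. Its lowest level, 7.21 CPM, was in T24.

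Cish (chromosome 9, 107296026 to 107302784, plus strand) and Socs2 (chromosome 10, 95385362 to 95417180, minus strand), whose products damp growth hormone signalling, differed more between mice of 1 group than between groups. Cish had 1.26 (N10) over 35.2 to 70.4 CPM (N12) in control livers and 0.963 (N21) over 6.32 to 75.0 CPM (N16) in ALIOS livers, a 55.7-fold and a 77.9-fold range. Its SD of log2 CPM was larger than that of 99.8% and 99.9% of genes in the 2 diets. Socs2 had 3.45 (N10) over 12.1 to 75.0 CPM (N12) and 1.89 (N21) over 9.67 to 26.3 CPM (N16), and its SD was larger than that of 98.9% and 98% of genes. The lowest and the highest liver of each diet were thus the same for both transcripts. Of the ALIOS livers, 10 of 11 had less Cish than the control median, but the log2 fold changes of -1.16 for Cish (standard error 0.64, adjusted p = 0.236) and -0.92 for Socs2 (0.47, adjusted p = 0.193) did not pass. Without N16, Cish did (-1.84, adjusted p = 0.0483). Gm17040 and Gm17041 overlap Cish on the other strand and could share its reads.

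In tumours Cish was 2.17 to 22.5 CPM in the spontaneous ALIOS and 3.07 to 18.9 CPM in the ALIOS DEN group, inside the range of the livers, and neither group passed the test. In control DEN tumours T17, T18, T19 and T20 had 3.72, 3.94, 3.76 and 3.75 CPM and T21 had 32.9 CPM. The group differed from control livers by -1.81 on the log2 scale (standard error 0.81, adjusted p = 0.0709), and by -3.18 (adjusted p = 0.00539) without T21. DESeq2 called it (adjusted p = 0.0339), and edgeR did not. Socs2 passed in no tumour comparison and ran from 3.20 to 18.03 CPM in the 25 tumours of these 3 groups.

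Bcl6, a repressor of growth hormone targets, was set beside Cish in each library. The livers N8 and N10, with 1.73 and 1.26 CPM of Cish, had 103 and 79.5 CPM of Bcl6, while N9, with 4.92 CPM of Cish, had 27.8 CPM. N16, with the most Cish, had 16.3 CPM of Bcl6. Of the 26 tumours, 6 had more than 15 CPM of Cish, and their Bcl6 was 4.65 to 17.9 CPM, against 15.1 to 65.8 CPM in the other 20. The limit of 15 CPM was not set in advance, so this split is a description only. T14 and T24, with 10.2 and 11.8 CPM of Cish, were among the other 20. In ALIOS livers Pearson's r of log2 CPM was -0.787 (permutation p = 0.00365) and Spearman's rho -0.845 (p = 0.00184), and without N16 and N21 r was -0.915 (n = 9, described only). In control livers r was -0.799 (permutation p = 0.00228) and rho -0.531 (p = 0.0795), but N8, N9 and N10 lay apart there, and within the other 9 livers r was -0.129. Among 94 pairs, the adjusted p-values for r of Cish and Bcl6 were 0.0572 and 0.0496, and the pair was chosen after its values were seen. Socs2 and Bcl6 had r = -0.356 (permutation p = 0.283, adjusted p = 0.502) and rho = -0.2 in ALIOS livers. In control livers they had r = -0.719 (permutation p = 0.00855, adjusted p = 0.101), and r = -0.414 without N8, N9 and N10. Bcl6 itself did not pass in any comparison.

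Correlations were computed within each diet for the 45 pairs of the 10 genes in livers, 90 in all, with 2-sided permutation tests. Igf1 and Igfals rose and fell together across the 11 ALIOS livers (r = 0.949, permutation p = 1e-05, the smallest the test can give, adjusted p = 0.0009), with a rho of 0.982 (adjusted p = 0.0009) and r = 0.933 without N17 and N19. Igfals and Igfbp4 had r = 0.909 (permutation p = 0.00022, adjusted p = 0.0099) and rho = 0.836 (adjusted p = 0.0878) in the same livers, and 0.889 without N19 and N23. No pair passed in control livers, where Igf1 and Igfals had r = 0.572 (permutation p = 0.0509, adjusted p = 0.241). Cish and Socs2 had r = 0.79 in control livers (permutation p = 0.00168, adjusted p = 0.0504) and rho = 0.79 (adjusted p = 0.0878), and 0.662 in ALIOS livers (permutation p = 0.0263, adjusted p = 0.241). Tumours fell apart in Igfals, and no correlation was tested over them. Over all 49 libraries, livers and tumours together, as a description with no test in which the contrast of tissues is shared, the genes most like Igf1 were Ces3b, Cyp2f2 and Il1rap (r = 0.969, 0.961 and 0.961), those most like Igfals were Ndrg2, Csrp3 and Gnmt (0.981, 0.973 and 0.972), and those most like Igfbp1 were S1pr3, Sema6b and Trib3 (0.942, 0.937 and 0.933).

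DEN tumours did not differ from spontaneous tumours on the ALIOS diet in any of the 10 (0 with an unadjusted p-value under 0.05, and 0 by DESeq2), where edgeR called 0% of 14845 genes. The intervals remain wide. For Igfbp1 the ratio of DEN to spontaneous tumours was 1.86 (95% interval 0.735 to 4.69), and for Igfals 1.11 (0.393 to 3.17). Diet did not change any of the 10 in DEN tumours (0 with an unadjusted p-value under 0.05, 0 by DESeq2), where 0.0134% of 14944 genes were called. The ratio of ALIOS to control was 0.863 for Igfbp3 (0.433 to 1.72) and 1.84 for Igfals (0.583 to 5.79). None of the 10 passed in the test of whether the DEN tumour effect differed by diet (0 by DESeq2). Only 1, Igfbp3, had an unadjusted p-value under 0.05. Of 15606 genes 2.27% were called, 1.04% with a higher and 1.23% with a lower value on the ALIOS diet. Of 13 clock genes, 11, 12 and 11 had an unadjusted edgeR p-value under 0.05 in these 3 tests in this order. Of all genes tested, 1079, 1273 and 2617 did. After adjustment 0, 0 and 3 clock genes passed. The part of the hour of death in these tests was not tested.

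Of 7 other ligands, receptors and their substrates tested, 3 rose and 1 fell in spontaneous and in ALIOS DEN tumours, and 2 rose and 1 fell in control DEN tumours, near the shares of all genes called (52.8%, 47.5% and 51.7%). Igf2r, the receptor that clears IGF-2, rose in all 3 tumour comparisons (0.68, 1.20 and 0.98 on the log2 scale, adjusted p = 0.00175, 2.2e-05 and 1.07e-06), and the insulin receptor Insr in the spontaneous and control DEN tumours (0.36 and 0.62, adjusted p = 0.0108 and 9.89e-05). Igf2, the fetal growth factor, rose in ALIOS tumours without and with DEN (1.90 and 1.71, adjusted p = 0.0138 and 0.00127) but had at most 6.31 CPM in every library. Igf1r had at most 1.98 CPM and did not pass in any comparison. Stc1, an inhibitor of the protease that cuts Igfbp4, had at most 0.132 CPM in livers, 0.113 to 12.4 CPM in spontaneous ALIOS, 0.695 to 47.6 CPM in ALIOS DEN and 4.72 to 10.96 CPM in control DEN tumours. Of the other IGF binding proteins and proteases, 0 of 5 were called by edgeR in spontaneous tumours (0 with an unadjusted p-value under 0.05). In ALIOS DEN tumours 1 of 6 rose, and in control DEN tumours 3 of 6 rose and 1 fell. Of all genes, 52.8%, 47.5% and 51.7% were called in these comparisons. A gene near 0 in livers, as Stc1 was, could pass the filter on low counts only through the tumours. Of the transducers and brakes, 1 of 9 rose and 2 fell in spontaneous tumours. In ALIOS DEN tumours 2 of 9 rose and in control DEN tumours 1 of 10, Jak2 among those that rose each time. These genes were called less often than all genes (52.8%, 47.5% and 51.7%).

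Transcripts that growth hormone makes sex-biased differed with diet in liver. Several of the 10 female-biased genes were near 0 in control livers and could pass the filter on low counts only through the ALIOS group. Of the 10, 7 passed the filter and were called higher, where 6.73% of all genes tested with the filter were higher. With no filter 9 were called higher, and 1365 genes were called in either direction. The share of all genes is not given for that fit. All 11 male-biased genes passed the filter, and 4 fell and none rose (median log2 fold change -0.73), where 4.51% of all genes were lower. Cyp2b13 rose by 4.35 (standard error 0.71, adjusted p = 0.00108), Cyp2a4 by 3.77 (0.76, adjusted p = 0.0047) and A1bg by 3.84 (0.82, adjusted p = 0.00624), the last with 31.4 CPM in N23 and at most 2.50 CPM in the other ALIOS livers. Cyp2a4 ran from 0.286 over 9.04 to 101 CPM in control and from 57.0 over 216 to 1188 CPM in ALIOS livers. Of the male-biased genes, Gstp1 fell by 1.03 (adjusted p = 0.00065), Cyp2u1 by 0.68 (adjusted p = 0.016), the fatty acid elongase Elovl3 by 2.21 (adjusted p = 0.0221) and Hsd3b5 by 1.44 (adjusted p = 0.0347). Across the alternatives, 6 to 9 female-biased genes were called higher and 1 to 5 male-biased genes lower. Cyp2b, Cyp2a and Cyp3a genes have close copies among which reads can be split. Cux2, a female-biased regulator, and Trim24, Onecut1, Hnf4a and Bcl6 did not pass for diet.

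In tumours the male-biased genes fell, in 10 of 11 cases in spontaneous ALIOS (median log2 fold change -3.05) and 9 of 11 in control DEN tumours (median -3.35), where 25.9% and 24.4% of all genes fell. Cyp4a12a, a male-specific fatty acid hydroxylase, had 399.5 and 449.5 CPM as medians in control and ALIOS livers and 13.6, 20.4 and 16.7 CPM in spontaneous ALIOS, ALIOS DEN and control DEN tumours. In ALIOS DEN tumours 2 of 11 fell, where 19.8% of all genes did, a count that ran from 0 to 7 across the alternatives, with the liver-like levels of T23 and T25 (366 and 343 CPM of Cyp4a12a) in that group. The female-biased genes did not move as a block. Of those that passed the filter, 4 of 8 rose in spontaneous tumours, Cyp2a4, Sult2a1, Cyp2b9 and Cyp2b13, and none fell. In ALIOS DEN tumours 1 of 7 rose, Cyp2a4 (2.46), and 2 fell, among them A1bg (-4.30). Among the ALIOS livers A1bg was high in N23 alone (31.4 CPM), and no fit without N23 was run for this comparison. In control DEN tumours 3 of 5 rose. The shares of all genes tested with the filter that rose were 26.9%, 27.7% and 27.3%. Female-biased genes near 0 in control livers could pass the filter in this last comparison only through the tumours. With no filter, 4 of 10 rose and 1 fell in control DEN tumours. In spontaneous tumours 4 of 10 then rose and 0 fell, and in ALIOS DEN tumours 2 rose and 3 fell. The shares of all genes are not given for the fits with no filter. The diet difference in the DEN tumour effect passed for Cyp2a4 (-5.28, adjusted p = 0.00918), Cyp2b13 (-4.73, adjusted p = 0.0246) and Elovl3 (6.93, adjusted p = 0.0295), where 2.27% of all genes were called. Across the alternatives 0 to 1 male-biased genes passed there. In the main fit 3 of 13 clock genes passed there too, all with a higher value on the ALIOS diet.

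**Figure D4:**
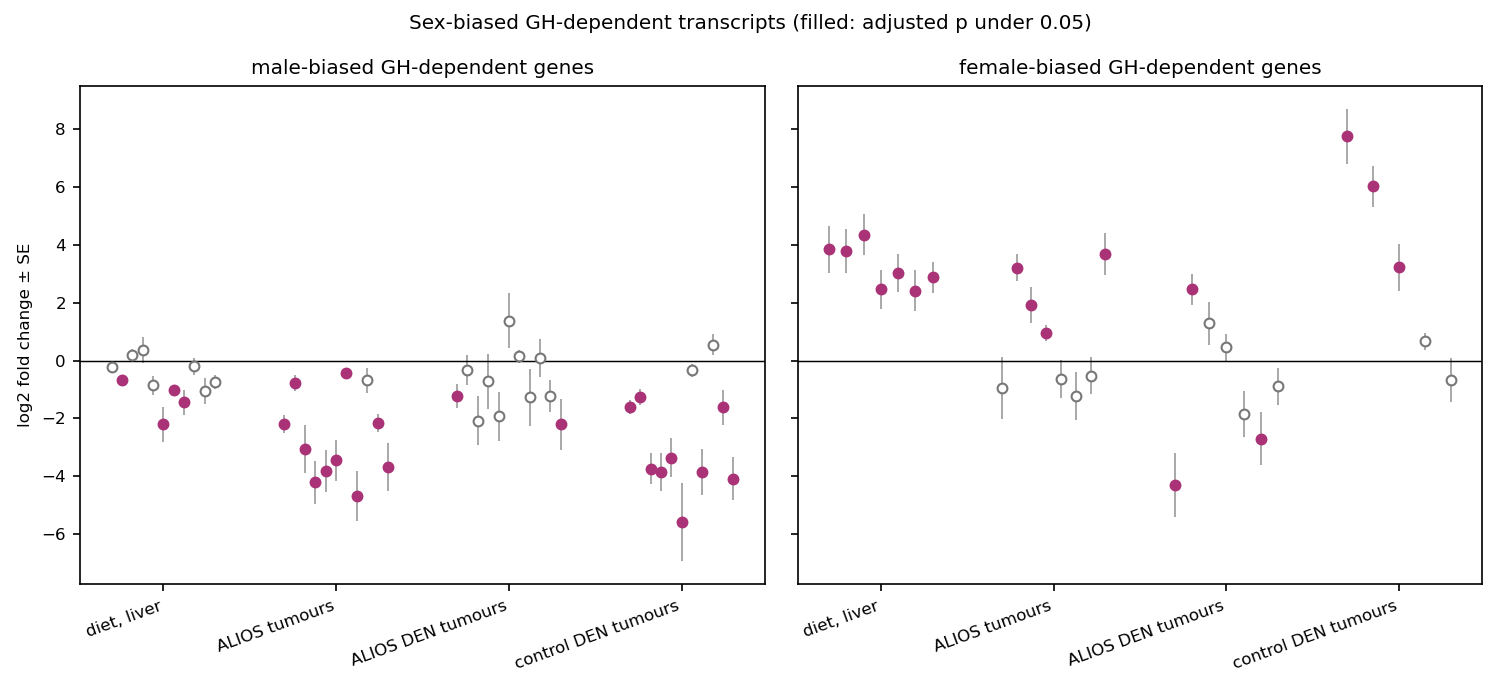
Log2 fold changes with standard errors of male-biased (left) and female-biased (right) growth hormone dependent genes that were tested, in 4 comparisons, filled where the edgeR adjusted p-value was under 0.05. With diet in liver the 7 female-biased points, of genes that passed the filter on low counts, are filled and above 0, while the filled male-biased points lie below 0 in every comparison.

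The other genes that insulin represses through FOXO1 mostly did not rise with Igfbp1. Of 8 such genes, 0 changed with diet in liver by edgeR (1 with an unadjusted p-value under 0.05, and 0 by DESeq2), and 5, 5 and 6 fell in spontaneous ALIOS, ALIOS DEN and control DEN tumours, where 25.9%, 19.8% and 24.4% of all genes did. Pck1, the gluconeogenic enzyme PEPCK, fell by 1.71, 1.60 and 1.71 on the log2 scale (adjusted p = 5.28e-05, 0.0435 and 5.7e-05), and Klf15 by 0.79, 0.99 and 0.79 (adjusted p = 8.22e-06, 4.03e-05 and 7.37e-05). In the main fit only Trib1, in control DEN tumours, rose (0.66, adjusted p = 0.000486). Across the alternatives 0 to 1 of the 8 rose and 4 to 5 fell in spontaneous tumours. In ALIOS DEN tumours 0 rose and 4 to 5 fell, and in control DEN tumours 1 rose and 6 fell. Of 19 hepatocyte markers 12, 8 and 8 fell against these shares, and 4, 4 and 4 rose, where 26.9%, 27.7% and 27.3% of all genes did, while the summed level of that list had a median of 143700 CPM in ALIOS livers and 222700 CPM in spontaneous ALIOS tumours. The part of a general change of hepatocyte transcripts in the fall of Ghr, Igf1 and Igfals was not tested.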

How the data were processed

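RNA was sequenced from liver and liver tumour by the authors with a stranded paired-end mRNA kit. They aligned the reads with STAR in its 2-pass mode to mm10 and counted exonic reads per gene with HTSeq and Gencode version M6. The deposited table holds raw counts of 45792 genes. Tool versions and the strand setting of the counting are not given in the sources used here.

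Counts were analysed as deposited with edgeR 4.0.16 in R 4.3.3 (TMM factors, filterByExpr, quasi-likelihood F-test), fitting only the groups compared and adjusting p-values by Benjamini-Hochberg over all genes tested, with a threshold of 0.05. The standard error of a log2 fold change was its size divided by the root of F, and intervals of 95% span 1.96 standard errors either way. Levels are CPM with TMM factors, and correlations used log2 CPM with a prior count of 2 and 100000 permutations. Python 3.11.15, scipy 1.17.1 and matplotlib 3.10.9 served for these and the plots. Coordinates come from GRCm38 with Gencode version M21. On simulated data, edgeR recovered 87.5% of genes changed by 1 and 97.9% of those changed by 2 on the log2 scale in the diet comparison of 13723 genes, and 4.3% of its calls were false, against 12.3% for DESeq2. Those counts were drawn with dispersions estimated by edgeR, and far fewer genes were changed than were called in the data. The false shares hold for that setting, and none was computed for the tumour comparisons.

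T1 was left out. Each library was taken as a separate sample, and no label ties a tumour to the liver of the same mouse, so p-values measure the spread between these libraries. Depth was 23798251 to 45751398 counts per library, which sets the precision of low genes such as Cish.

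The 10 genes and all other lists were chosen with earlier results of these data known. All 10 are named whatever their values. Other pathway lists are given by counts and by up to 4 called members with the smallest p-values, with Igf2, Igf1r, Stat5a, Jak2 and Bcl6 always, and for Igf1, Igfals and Igfbp1 the 3 genes with the highest correlation. Genes named beyond this, such as Stc1, the clock genes and single sex-biased genes, were chosen after their values were seen. Alternatives were RLE factors, no factors, DESeq2 1.42.0, no filter, all 6 groups in 1 fit, T1 kept, a replicate block with limma 3.58.1 and leaving out libraries. Leaving out T2, T6 and T23 and each liver in turn was chosen after seeing the data. Titles of some livers and tumours share a number, but the deviations of such libraries from their group means had correlations of -0.193 to 0.054, so the number was not used as a pair. Some genes of the lists are not reported here.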

Additional observations from a re-analysis of the deposited data

Results flagged for a closer look

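In groups of 4 to 10 samples, the highest or lowest sample was compared with the spread of its group by Dixon's ratio. Of 20 such groups of values, 3 held a sample beyond the 95% limit, where chance gives about 1.0. Igf1 was 13.05 CPM in T24 against 145 to 579.9 CPM in the other 7 ALIOS DEN tumours, and Stat5b was 28.2 CPM in T24 against 38.5 to 46.1 CPM in the others. Cish was 32.9 CPM in T21 against 3.72 to 3.94 CPM in the other 4 control DEN tumours, and Bcl6 in T21 was 4.73 CPM.

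T7, the only tumour of a control diet mouse without DEN, entered no test, because its group has 1 sample. Igfbp1 was 757 CPM there, above the highest control liver at 121 CPM, and Igfbp3 was 64.4 CPM, above the highest control liver at 19.1 CPM. Its Igfals level was 26.4 CPM and its Igf1 level 229 CPM, both below every control liver, while its Ghr level of 319.7 CPM lay inside their range.

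In the main fit the DEN tumour effect differed between the diets by the interaction term for 3 sex-biased genes, Cyp2a4 (-5.28), Cyp2b13 (-4.73) and Elovl3 (6.93 on the log2 scale, ALIOS less control, edgeR adjusted p = 0.00918, 0.0246 and 0.0295). They were 2 of 9 female-biased and 1 of 11 male-biased genes tested, where 2.27% of all 15606 genes were called, 1.04% higher and 1.23% lower. The male-biased call, Elovl3, was lost with DESeq2 and without T17, T18 or T20. Cyp2a4 had a median of 9.04 CPM in control and 216 CPM in ALIOS livers, and 5855 and 1875 CPM in the DEN tumours of these diets.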

How the results depend on the processing

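Of 840 values of the 10 genes under alternatives, 792 kept their direction and side of the threshold, 5 lost a call, 5 gained one and 38 changed direction, all 38 among values that passed in neither fit. Genes called among the 10 with diet in liver were 0 with all 6 groups in 1 fit and 1 to 2 when a liver was left out, Cish joining without N16 and Igfals (-0.28, adjusted p = 0.042) without N23. In the interaction they were 0 to 1, the 1 being Igfbp3 without T24. Over all genes, all 6 groups in 1 fit called 623 for diet in liver, 403 for DEN against spontaneous tumours, 296 for diet in DEN tumours and 220 for the interaction, and DESeq2 called 75, 155 and 657 in the last 3. Diet in DEN tumours gave 1 without the filter. Leaving out a library gave 949 to 2343 for diet in liver (the lowest without N17, the highest without N13), 0 to 14 for diet in DEN tumours (14 without T24) and 174 to 732 for the interaction (174 without T17, 732 without T24). The cause was not tested.

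Without factors the median of all genes moved by 0.176 in spontaneous and 0.137 in ALIOS DEN tumours, and the share of called genes that were higher went from 59.9% to 87.1% for diet in liver, from 50.9% to 72.9% in spontaneous and from 58.3% to 73.9% in ALIOS DEN tumours. The replicate block kept 7 calls in spontaneous tumours and 5 in ALIOS DEN tumours, where Igfbp3 was lost (0.76, adjusted p = 0.0694). It changed no other call of the 10. With T1 kept, the 7 calls in spontaneous tumours stood at 7. In single libraries Cish rested on as few as 26 counts, so its lowest levels are the least precise.

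The changes of direction were these, on the log2 scale. Leaving out a liver moved the diet effect in liver between -0.0158 and 0.0687 for Ghr, -0.257 and 0.361 for Igfbp1, -0.346 and 0.0119 for Igfbp2 (each turning without N5, and Igfbp1 also without N21) and -0.0421 and 0.0516 for Igfbp4, which was -0.0013 by RLE factors and by DESeq2. In ALIOS DEN tumours against liver, Socs2 was 0.0371 and Stat5b 0.0268 without factors, and with the replicate block Socs2 was 0.115 and Cish 0.12. For DEN against spontaneous tumours, without T24 Ghr was 0.0903, Igf1 0.062, Igfbp2 0.0511 and Igfbp3 -0.498, Igfbp3 was -0.255 with T1, and Ghr was 0.0498 without T2, T6 and T23. For diet in DEN tumours, leaving out a tumour gave -0.146 to 0.136 for Igf1, -0.0692 to 0.577 for Igfbp1, -0.739 to 0.096 for Igfbp3 and -0.254 to 1.29 for Cish (the highest without T21), and without factors Igf1 was 0.0584 and Cish 0.0039. In the interaction they were -0.0663 to 0.213 for Igf1 and -0.393 to 0.0375 for Igfbp2.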

Other observations

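A few libraries had sex-biased transcripts unlike those of their group, and were picked out after their values were seen. The ALIOS liver N23 had 14.2 CPM of Cux2, 31.4 CPM of A1bg and 1188 CPM of Cyp2a4, all the highest of the ALIOS livers, and the lowest Cyp4a12a (121 CPM) and Mup20 (52.2 CPM) among them. Its Igf1 (882 CPM) and Igfals (159.9 CPM) were the highest of that group. The tumour T2 had 22.9 CPM of Cux2, 19.4 CPM of A1bg and 105 CPM of Cyp4a12a, and the control liver N5 had 10.99 CPM of Cux2, 188 CPM of Cyp4a12a and the lowest Ghr of the control livers, but 0.452 CPM of A1bg.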
